A study of Callithrix jacchus with 20 samples.

Results

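Integrins and laminins are the receptor and ligand sides of the contact between a cell and its basement membrane, and their chain genes were followed here from marmoset induced pluripotent stem cells to primordial germ cell-like cells. The members were chosen by symbol alone: every gene named as an integrin α chain, an integrin β chain or a laminin α, β or γ chain, leaving out ITGA6, because its protein, INTα6, was used to sort the cells. This gave 36 of the 25102 genes in the count table: 16 integrin α chains, 8 integrin β chains, 5 laminin α chains, 4 laminin β chains and 3 laminin γ chains. Of these, 28 passed the filter on low counts and were tested, namely 12 α and 5 β integrin chains and 11 laminin chains. A gene can pass this filter through a single condition in which it is high, so the counts of tested members given below are descriptions, set beside the share of all 15797 tested genes that were called in the same comparison.

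The 20 RNA-seq libraries all came from 1 induced pluripotent stem cell line of the common marmoset (Callithrix jacchus), DPZ_cjiPSC2, so the spread between libraries does not cover the spread between lines or animals. There were 10 conditions with 2 libraries each, which the labels call biological replicates. The TESR pre-ME libraries entered the series in a later block than all other libraries. A library series effect therefore cannot be told apart from these conditions when they are set against the TESR cjiPSCs or other cells. The cjiPSCs were kept in TESR, a medium for primed pluripotent cells, or in cjPSCM, a medium holding LIF, the WNT pathway modulators CHIR and IWR-1, the kinase inhibitor A419259, vitamin C, TGFβ and FGF2. From each medium, precursors of mesendoderm (pre-ME cells) were induced with or without Activin A (ActA), the WNT agonist CHIR and the ROCK inhibitor Y-27632 being present in both. The pre-ME cells from cjPSCM, with or without ActA, were then aggregated into embryoid bodies with BMP4, LIF, SCF, EGF and Y-27632. On day 4 the embryoid bodies were sorted into double-positive cells, called cjPGCLCs, and double-negative cells, called somatic cells. The labels name EpCAM beside INTa6 or CXCR4 as the sort antigens, whereas the study's methods name CXCR4 and INTα6. The growth surface changed with each step, from a coating of basement membrane extract for the cjiPSCs to vitronectin for the pre-ME cells and to low-attachment wells for the embryoid bodies, so step and surface cannot be told apart.

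Reads assigned to genes ran from 4784964 to 22067099 per library, and the somatic cells held the shallowest library. The replicates stood farthest apart in the cjPSCM cjiPSCs, where the SD of the log2 difference between the 2 libraries over all tested genes was 0.974, against 0.318 to 0.629 in the other 9 conditions. The germ cell genes NANOS3 and DPPA3 were above 3 counts in both groups of cjPGCLCs and at most at 3 counts in every somatic library. Of 4 mesoderm genes, HAND1 and PDGFRA were high in both sorted fractions, at 2135 to 4845 and 3481 to 8217 normalised counts, while MESP1 was at 2.31 to 22.8 and FOXF1 at 3.54 or less. The mesendoderm gene TBXT reached 31.9 to 55.3 normalised counts in TESR pre-ME cells with ActA and stayed at or below 3 counts in all pre-ME cells from cjPSCM, while EOMES and MIXL1 of the same list were at 39.2 and 22.5 and at 19.2 and 11.2 in those with ActA, against 4.71 and 1.48 and 10.4 and 5.93 in the cjPSCM cjiPSCs.

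An integrin is a pair of an α and a β chain that spans the membrane, binds the matrix outside and couples to actin inside through adaptors such as talins and kindlins. A laminin is a trimer of an α, a β and a γ chain, secreted into the basement membrane, which cells bind mainly through integrins that pair an α3, α6 or α7 chain with β1. Primordial germ cells and epiblast both sit on basement membranes in the embryo, and laminin and vitronectin are standard coatings for pluripotent cells in culture. Chain genes were read here as mRNA, which does not show which chains paired. Levels below are the deposited counts divided by size factors (normalised counts), which compare one gene between libraries but not one gene with another.

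Leukocyte integrins were not expressed at a level that could be tested. The 8 members outside the filter were ITGAE, ITGAL, ITGAM and ITGAX with their β partners ITGB2 and ITGB7, the ITGA6 partner ITGB4, and LAMB4. Their highest counts in any library were 3 for ITGAE, 1 for ITGAL, 2 for ITGAM, 11 for ITGAX, 21 for ITGB2, 6 for ITGB7, 5 for ITGB4 and 4 for LAMB4. No gene was listed under ITGAD. ITGB4, the hemidesmosome chain that pairs only with ITGA6, was thus at 5 counts or fewer in all 20 libraries, while ITGB1, the other partner of ITGA6, was at 7613 normalised counts or more in each. ITGA6 itself, given as a description because the sort used it, was at 1829 and 1401 normalised counts in the cjPGCLCs without ActA and at 2277 and 1206 in those with ActA. It was at 201 and 155 in the somatic cells without ActA and at 218 and 149 in those with ActA. Before the sort it was highest in the cjPSCM cjiPSCs, at 3224 and 4632, and in the pre-ME cells derived from them without ActA, at 3448 and 3264.

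Among the β chains, ITGB1, the common partner of most α chains, varied least. Its mean ran from 7640 ± 37.8 (SD, n = 2) in TESR pre-ME cells without ActA to 17488 ± 3041 in the cjPSCM cjiPSCs, a ratio of 2.29. The TESR cjiPSCs were at 14556 and 14150, and all other conditions lay between 8661 and 12058. ITGB5, which pairs with ITGAV into a vitronectin receptor, was at 5331 and 6068 in the TESR cjiPSCs and at 4502 and 3798 in the cjPSCM cjiPSCs. It was at 2084 and 1635 in TESR pre-ME cells without ActA and at 1568 and 1401 in those from cjPSCM, the 4 libraries at 2084 or less. With ActA the pre-ME cells lay at 3214 and 3180 in TESR and at 3542 and 3282 in cjPSCM, within the range of the sorted cells, 2709 to 4735.

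ITGB8, an ITGAV partner that binds latent TGFβ, was lowest in the cjiPSCs, at 29.2 and 16.4 in TESR and at 14.1 and 13.3 in cjPSCM. The pre-ME cells from TESR were at 245 and 219 without ActA and at 200 and 182 with it, and those from cjPSCM were at 75.5 and 61.4 without and at 47.6 and 43.5 with it. It was highest in the cjPGCLCs, at 468 and 481 without ActA and at 335 and 343 with it, and the somatic cells lay below both, at 261 and 280 without and 257 and 240 with ActA. No library of the cjPGCLCs overlapped with any other condition.

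ITGB3, which pairs with ITGAV or with ITGA2B, was at 260 and 280 in the cjPSCM cjiPSCs and at 170 or less in the other 18 libraries. It was at 42.4 and 17.9 in the TESR cjiPSCs and lowest in the TESR pre-ME cells without ActA, at 9.88 and 4.21. Its replicates differed widely in the cjPGCLCs with ActA, at 170 and 55.5. ITGB6, an ITGAV partner of epithelia, had no counts in the 4 cjiPSC libraries and at most 13 counts in any other.

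**Figure D1:**
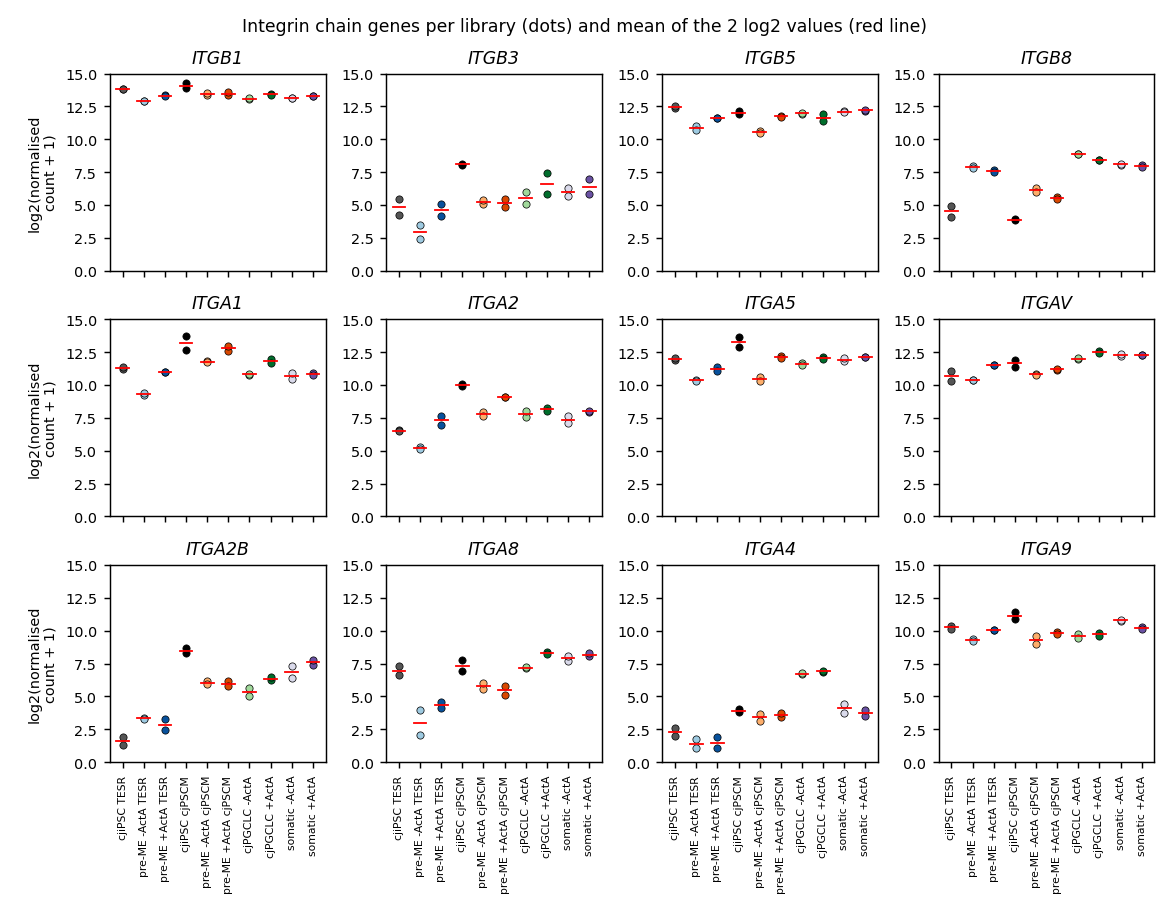
Levels of 12 integrin chain genes, as log2(normalised count + 1), in the 10 conditions (x axis), each dot 1 library and each red line the mean of the 2 log2 values. ITGA2B and ITGB3 stand highest in the cjPSCM cjiPSCs, ITGB8 rises from cjiPSCs to cjPGCLCs, and ITGA4 stands apart in the cjPGCLCs.

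The collagen-binding α chains ITGA1 and ITGA2, which pair with ITGB1, were both highest in the cjPSCM cjiPSCs and lowest in the TESR pre-ME cells without ActA. ITGA1 was at 13323 and 6438 in the cjPSCM cjiPSCs, at 6285 and 7811 in the pre-ME cells made from them with ActA and at 3677 and 3365 in those without. In TESR it was at 2434 and 2688 in the cjiPSCs, at 2008 and 2052 with ActA and at 614.5 and 654.5 without. The first replicate of the cjPSCM cjiPSCs was above every other library, and its partner replicate overlapped with the pre-ME cells with ActA. ITGA2 was at 1061 and 986 in the cjPSCM cjiPSCs, above every other library, and at 38.4 and 34.6 in the TESR pre-ME cells without ActA, below every other library. The sorted cells lay between, at 136 to 305. The other collagen receptors were near the limit of detection: ITGA10 was at 14.2 normalised counts or less, and ITGA11 was at 25.7 and 17.0 in TESR pre-ME cells with ActA and at 8.34 or less elsewhere.

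Of the laminin-binding α chains other than ITGA6, ITGA3 was at 189 and 517 in the TESR cjiPSCs and at 244 and 227 in the cjPSCM cjiPSCs. It was lowest in the somatic cells, at 27.7 and 21.7 without ActA and at 51.4 and 34.3 with it, whereas the cjPGCLCs were at 246 and 139 without and at 151 and 69.7 with ActA. The 4 somatic libraries and 1 of the cjPSCM pre-ME cells without ActA, at 44.6, were the only ones at 51.4 or less. ITGA7, best known from muscle, was at 208 and 144 in the cjPSCM pre-ME cells without ActA. Its values in the cjPSCM cjiPSCs were 6.59 and 166, so this condition gave no usable level.

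Of the chains that bind the RGD motif of fibronectin and vitronectin, ITGA5 and ITGAV were expressed throughout. ITGA5, the fibronectin receptor chain paired with ITGB1, was at 12907 and 7419 in the cjPSCM cjiPSCs, above every other library, and at 1232 to 1554 in the 4 libraries of pre-ME cells without ActA, below every other library. The sorted cells lay at 2867 to 4508. ITGAV, the partner of ITGB1, ITGB3, ITGB5, ITGB6 and ITGB8, was highest in the cjPGCLCs with ActA, at 6206 and 5477, followed by the somatic cells, at 5032 and 5094 with and 4684 and 5204 without ActA. All 8 sorted libraries were at 3939 or more, and all 12 libraries before the embryoid body step were at 3842 or less. ITGA8, paired with ITGB1, was likewise low in the pre-ME cells, at 3.28 to 64.4, and at 98.3 or more in every cjiPSC and sorted library.

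ITGA2B, the platelet chain that pairs with ITGB3, had the highest ratio of highest to lowest condition mean, 169, among the tested members with a ratio. It was at 2.75 and 1.49 in the TESR cjiPSCs, which is 5 and 1 reads, and at 312 and 406 in the cjPSCM cjiPSCs. The TESR pre-ME cells were at 4.38 to 9.33, and the pre-ME cells from cjPSCM at 53.4 to 70.9. The somatic cells were at 83.0 and 156 without ActA and at 168 and 221 with it, and the cjPGCLCs lay below their matched somatic cells, at 47.9 and 31.5 without and at 75.2 and 86.7 with ActA.

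ITGA4, whose pairs with ITGB1 or ITGB7 bind fibronectin and VCAM1, was expressed mainly in the cjPGCLCs. They were at 102 and 110 without ActA and at 117 and 122 with it. The 16 other libraries did not exceed 20.8, and the 6 TESR libraries were at 4.96 or less. Of its partners, ITGB7 did not exceed 6 counts in any library. The leukocyte gene PTPRC moved with ITGA4, at 25.2 to 46.9 normalised counts in the cjPGCLCs and at 4.47 or less elsewhere. The part of this in the ITGA4 values was not tested. ITGA9, which with ITGB1 binds tenascin C and other ligands, was at 2728 and 1897 in the cjPSCM cjiPSCs and next highest in the somatic cells without ActA, at 1734 and 1776. The cjPGCLCs without ActA were at 838 and 687, below both.

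The laminin α chains differed in their order over the conditions. LAMA1, the chain of the earliest embryonic laminin, was at 5360 to 7559 in the 8 sorted libraries and at 3980 or less in the 12 others. LAMA5, the chain of the main epiblast laminin, was at 4316 and 3734 in TESR pre-ME cells with ActA and at 3663 and 3129 in those without, against 1250 and 1727 in the TESR cjiPSCs. The 2 cjPSCM cjiPSC libraries were at 689 and 3083 for LAMA5, so no level could be given there. LAMA2, the muscle and nerve chain, separated the media: the 6 TESR libraries were at 22.8 to 45.7, and the 14 libraries of cjPSCM origin at 201 to 2829, highest in the cjiPSCs with 2829 and 1951.

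LAMA4, the chain of vascular and mesenchymal basement membranes, was called in all 13 pairwise comparisons. It was at 558 and 491 in the TESR cjiPSCs, at 100.4 and 95.9 in the pre-ME cells made from them without ActA and at 211 and 144 in those with ActA. In cjPSCM the same 3 conditions were at 3553 and 2315, at 406 and 347, and at 1230 and 1447. The cjPGCLCs were at 2297 and 2500 without ActA and at 3559 and 3648 with it, and the somatic cells at 542 and 664 and at 760 and 652. LAMA3, an epithelial chain, stayed at 32.9 or less in every library.

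LAMB1 and LAMC1, the β and γ chains that many laminins share, had their highest means in the cjPGCLCs, LAMB1 in those without and LAMC1 in those with ActA. LAMB1 was at 10320 and 8016 in the cjPGCLCs without ActA and at 6646 and 5114 in those with it, against 3162 to 3794 in the 4 somatic libraries. The cjPSCM cjiPSCs, at 7874 and 5600, overlapped with the cjPGCLCs with ActA. LAMC1 was at 5632 and 4851 and at 7638 and 5884 in the same cjPGCLCs, and at 3448 to 4078 in the somatic cells. LAMB2 was highest in the cjPGCLCs with ActA, at 4349 and 3550, and otherwise between 1254 and 3049. LAMB3, an epithelial chain, was low and did not exceed 104. LAMC3 was at 290 and 157 in somatic cells made with ActA, against 6.48 or less in the 4 libraries of pre-ME cells without ActA.

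**Figure D2:**
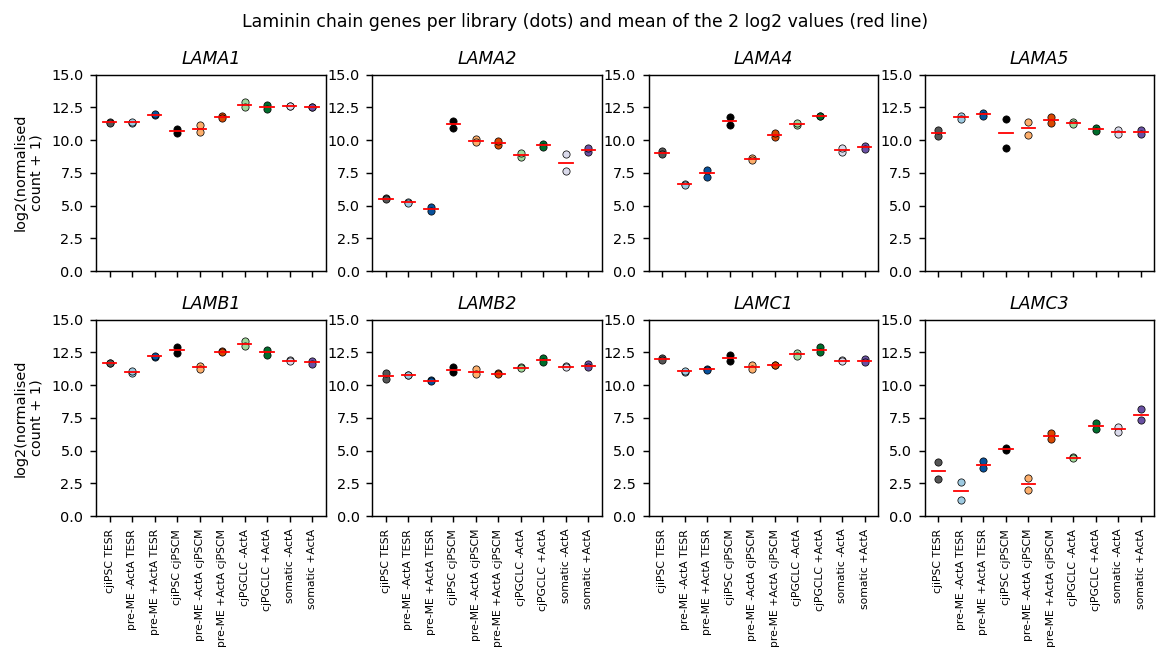
Levels of 8 laminin chain genes, as log2(normalised count + 1), in the 10 conditions (x axis), each dot 1 library and each red line the mean of the 2 log2 values. LAMA2 separates libraries of TESR from those of cjPSCM origin, and LAMA4 is higher in cjPGCLCs than in the matched somatic cells.

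The first comparison asked how the culture medium was reflected in the cjiPSCs. In cjPSCM, 13 of the 28 tested members were higher than in TESR and 3 were lower, at an adjusted p under 0.05. Among all tested genes, 18.1% were higher and 18.1% lower, and the median log2 fold change was 0.90 for the members and 0 for all genes. ITGA2B and its partner ITGB3, the collagen receptor chains ITGA1 and ITGA2, and the laminin chains LAMA2 and LAMA4 led the members that rose. Beyond a log2 fold change of 2, the second limit used in the study, lay 5 members against 9.18% of all genes.

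ITGA2B was 7.13 ± 0.45 (SE) higher on the log2 scale (adjusted p = 7.88e-09), a fold that rests on 6 reads in TESR. LAMA2 was 5.70 ± 0.33 higher (adjusted p = 4.54e-09) and ITGA2 3.46 ± 0.24 higher (adjusted p = 1.73e-08). ITGB3 was 3.02 ± 0.53 higher (adjusted p = 0.000288); with ITGA2B it forms the platelet integrin. LAMA4 was 2.46 ± 0.21, ITGA1 1.94 ± 0.25, ITGA5 1.32 ± 0.21 and LAMB1 1.04 ± 0.17 higher. These 8 calls held in every fit that left out 1 library, with ITGA1 at 1.29 without cjPSCM replicate 1 and ITGA2B and ITGB3 at 7.80 and 3.91 without TESR replicate 1. Of the 3 members that fell, LAMA1 was 0.68 ± 0.17 lower and kept its call in these fits. ITGB5 fell by 0.47 ± 0.16 and lost its call without replicate 2 of either group, with estimates from -0.62 to -0.34. ITGB8 fell by 0.86 ± 0.29 and lost its call without TESR replicate 1 or either cjPSCM replicate, with estimates from -1.11 to -0.24.

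ITGAV and ITGA9 were also called higher, by 0.92 ± 0.19 and 0.88 ± 0.19, and held in the same fits. The calls of LAMC3, 1.81 ± 0.51 higher and lost without TESR replicate 1 (estimate 1.06, and 2.44 without TESR replicate 2), and ITGA4, 1.67 ± 0.47 higher and lost without cjPSCM replicate 1 (lowest estimate 1.47), were less stable. Leaving out each cjiPSC library gave 14 to 18 called members, but a fit on the 4 cjiPSC libraries alone called 8, without LAMA1, ITGAV and ITGA9. ITGB1, the shared partner, differed by 0.27 ± 0.13 (adjusted p = 0.13). The endothelial genes CDH5 and TAL1 moved with these members. CDH5 was at 11857 and 3403 normalised counts in cjPSCM and at 671 and 619 in TESR, and TAL1 at 2579 and 2369 and at 516 and 389, while PTPRC was at 3 counts or fewer in both media. The endoderm gene GATA6 also moved, at 2821 and 2232 in cjPSCM and 136 and 182 in TESR, while FOXA2 was at 5.93 or less in both. The mesendoderm gene EOMES went the other way, at 4.71 and 1.48 in cjPSCM and 329 and 536 in TESR. TBXT and MIXL1 of its list were at 11.9 or less in both. The part of these genes in the integrin and laminin values was not tested, and in bulk RNA more cells of a type cannot be told from more RNA per cell.

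The next comparisons set the pre-ME cells against the cjiPSCs they were made from. In TESR with ActA, 9 of 28 members rose and 7 fell, against 17.3% and 17.1% of all genes, and 3 members against 6.96% of genes lay beyond a log2 fold change of 2. Without ActA 7 rose and 12 fell, against 17.4% and 19.2%, and 7 against 7.86% lay beyond that limit. In cjPSCM with ActA 2 rose and 10 fell, against 7.42% and 10.3%, and 2 against 3.06% lay beyond the limit. Without ActA 1 rose and 16 fell, against 17.9% and 20.1%, and 7 against 5.27% lay beyond the limit. The number of members that rose depended on single libraries. In TESR it ran from 3 to 6 with ActA and from 1 to 3 without when each library was left out, and DESeq2 called 4 without ActA. Without cjPSCM cjiPSC replicate 2 it went from 2 to 5 with ActA and from 1 to 6 without. The number that fell went from 7 to 4 without TESR pre-ME replicate 2 with ActA and from 10 to 6 without cjPSCM pre-ME replicate 1 with ActA, and without ActA it ran from 11 to 13 in TESR and from 13 to 16 in cjPSCM. The comparisons within a medium share their cjiPSC libraries, whereas those between media share none. The share of all genes called in both media was not counted, so the members called in both are given as a description. With ActA, ITGB8 and LAMA1 rose in both media, 2 of 9 and 2 of 2 members that rose, and ITGA5, ITGA8, ITGB1, LAMA4 and LAMC1 fell in both, 5 of 7 and 5 of 10.

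ITGB8 rose by 2.95 ± 0.21 on the log2 scale in TESR with ActA (adjusted p = 4.76e-08) and by 3.23 ± 0.21 without (adjusted p = 1.75e-08). In cjPSCM it rose by 1.74 ± 0.27 with ActA (adjusted p = 0.000357) and by 2.34 ± 0.25 without (adjusted p = 6.1e-06). These calls held with each library left out, and the call in cjPSCM with ActA was lost in a fit on the 4 libraries of the comparison (adjusted p = 0.12). ITGA8 fell by 2.75 ± 0.41 and 3.91 ± 0.46 in TESR with and without ActA, and by 1.98 ± 0.41 and 1.62 ± 0.38 in cjPSCM. Without ActA in TESR, the estimate for ITGA8 was -5.26 without replicate 1 of the pre-ME cells and -3.17 without replicate 2. That for ITGB8 in TESR was 3.57 with and 3.85 without ActA when cjiPSC replicate 1 was left out. The 2 calls of ITGA8 in cjPSCM were lost without replicate 1 of the pre-ME cells, and the one without ActA also without replicate 1 of the cjiPSCs, the estimates lying from -2.37 to -1.07. LAMA4 fell by 1.56 ± 0.21 and 2.41 ± 0.22 in TESR with and without ActA, and by 1.12 ± 0.20 and 2.93 ± 0.21 in cjPSCM, calls that held with each library left out.

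Without ActA 12 members fell in both media, 12 of 12 in TESR and 12 of 16 in cjPSCM, among them the collagen receptor chains ITGA1 and ITGA2 and the fibronectin receptor chain ITGA5. ITGA5 fell by 1.60 ± 0.21 in TESR and by 2.83 ± 0.22 in cjPSCM. ITGA1 fell by 2.00 ± 0.25 and 1.46 ± 0.24, ITGA2 by 1.32 ± 0.25 and 2.18 ± 0.22, and ITGA3 by 2.06 ± 0.40 and 1.99 ± 0.42. The vitronectin receptor chain ITGB5 fell by 1.60 ± 0.16 and 1.45 ± 0.16, ITGA9 by 0.99 ± 0.19 and 1.81 ± 0.20, and ITGB1 by 0.90 ± 0.13 and 0.60 ± 0.13. These calls held in every fit with 1 library left out, although ITGA3 in TESR was at -1.22 without cjiPSC replicate 2 and ITGA1 in cjPSCM at -0.82 without cjiPSC replicate 1. LAMC1 fell by 0.97 ± 0.17 and 0.63 ± 0.17, and its call in cjPSCM was lost without replicate 1 of the cjiPSCs or replicate 2 of the pre-ME cells, with estimates from -0.87 to -0.35. ITGB3 fell by 2.22 ± 0.64 in TESR, a call lost without cjiPSC replicate 1 or pre-ME replicate 2 (estimates from -2.92 to -1.33), and by 2.83 ± 0.52 in cjPSCM. LAMB1 fell by 0.63 ± 0.17 in TESR, a call lost without pre-ME replicate 1 (estimates from -0.70 to -0.58), and by 1.33 ± 0.18 in cjPSCM.

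In cjPSCM, ITGA2B fell by 2.42 ± 0.29 without ActA and by 2.49 ± 0.30 with it, and ITGB3 fell by 2.97 ± 0.54 with it. The endothelial genes CDH5 and TAL1 moved with these chains. CDH5 was at 11857 and 3403 normalised counts in the cjPSCM cjiPSCs, at 876 and 729 in the pre-ME cells without ActA and at 1116 and 955 in those with it, and TAL1 was at 2579 and 2369, at 519 and 485 and at 1237 and 1463. In TESR CDH5 was at 671 and 619 in the cjiPSCs and between 76.3 and 135 in the pre-ME cells. GATA6 went from 2821 and 2232 in the cjPSCM cjiPSCs to between 350 and 459 in the pre-ME cells made from them. The part of this in the integrin and laminin values was not tested. LAMA2 fell by 1.25 ± 0.26 without and by 1.44 ± 0.26 with ActA, and LAMC3 fell 6.50-fold without (log2 -3.43 without pre-ME replicate 1). LAMA1 was the second member to rise with ActA in cjPSCM, by 1.05 ± 0.17. With ActA in cjPSCM, ITGA5 fell by 1.18 ± 0.21, ITGA9 by 1.35 ± 0.20 and ITGA2 by 0.91 ± 0.21, the last lost without either pre-ME replicate (estimates from -0.98 to -0.84). ITGB1 fell by 0.62 ± 0.13 and LAMC1 by 0.53 ± 0.17 with ActA, and both were lost without pre-ME replicate 1, LAMC1 also without pre-ME replicate 2 or cjiPSC replicate 1 (estimates from -0.77 to -0.25). ITGAV fell by 0.81 ± 0.19 without ActA, lost without cjiPSC replicate 1. A fit on the 4 libraries of the comparison alone called 2 members with ActA, ITGA2B and ITGB3. Without ActA it called 11, losing ITGA1, ITGA8, ITGAV, ITGB1, LAMC1 and LAMC3.

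In TESR, 4 of the 11 laminin chains rose and 2 fell with ActA, and 4 rose and 3 fell without. LAMA5 rose by 1.45 ± 0.43 with ActA (adjusted p = 0.016) and by 1.21 ± 0.43 without (adjusted p = 0.037). The call with ActA was lost without replicate 1 of either group, and that without ActA when any of the 4 libraries was left out and under DESeq2, with estimates from 1.01 to 1.68. Without ActA, LAMA3 and LAMB3 rose by 2.05 ± 0.52 and 1.60 ± 0.49 and ITGA7 and ITGA2B by 2.14 ± 0.73 and 1.89 ± 0.59. LAMA3 lost its call without TESR cjiPSC replicate 1 (lowest estimate 1.87), and the other 3 lost theirs without cjiPSC replicate 1 or 2 among others, with estimates from 1.49 to 2.55. With ActA, LAMC1 fell by 0.82 ± 0.17 and ITGB5 by 0.82 ± 0.16, which held. ITGAV, ITGA2, LAMA1 and LAMB1 rose by 0.78 ± 0.19, 0.83 ± 0.23, 0.56 ± 0.17 and 0.54 ± 0.17, and ITGA3, ITGA5 and ITGB1 fell by 1.26 ± 0.39, 0.73 ± 0.21 and 0.47 ± 0.13. All 7 lost their calls in at least 1 of the fits that left out 1 library, and ITGA3 was at -0.42 without cjiPSC replicate 2. ITGA11 rose by 1.96 ± 0.57 (2.83 without cjiPSC replicate 1), and ITGB6, without a read in the cjiPSCs, was at least 1.05-fold higher against a floor of 3 counts per library. Both of these were lost under DESeq2 and without cjiPSC replicate 2, among others. In this comparison the number of called members dropped from 16 to 9 without cjiPSC replicate 2, to 9 without pre-ME replicate 1 and to 10 without pre-ME replicate 2.

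The share of reads outside genes moved with this step in TESR, from 10.6% and 13.3% in the cjiPSCs to between 19.3% and 20.6% in the pre-ME cells. In cjPSCM it was at 12.2% and 19.3% in the cjiPSCs and between 17.2% and 20.5% in the pre-ME cells. The part of this share in the results, those of the cjiPSC media included, was not tested. In TESR this step also coincides with the later block of libraries, and the 2 cannot be told apart.

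Adding ActA during pre-ME induction was then compared with leaving it out, within each medium. In TESR 11 of 28 members were higher with ActA and none lower, against 5.63% and 3.20% of all genes. The median log2 fold change was 0.68 for the members and 0.01 for all genes. In cjPSCM 10 were higher and 1 lower, against 11.4% and 9.54%, with medians of 0.39 and -0.02. Beyond a log2 fold change of 2 lay 3 members in TESR against 2.00% of genes and 2 in cjPSCM against 2.11%. The same 9 genes were higher in both media, 9 of 11 in TESR and 9 of 10 in cjPSCM: ITGA1, ITGA2, ITGA5, ITGA11, ITGB5, LAMA1, LAMA4, LAMB1 and LAMC3. No library is shared between these 2 comparisons, and the share of all genes higher in both was not counted. Some genes of other cell types moved with ActA. In TESR the lists of 3 mesendoderm, 4 mesoderm and 4 amnion genes summed to 156 to 193, 80.9 to 112 and 635 to 708 normalised counts without ActA and to 394 to 784, 141 to 268 and 1506 to 1757 with it. In cjPSCM they summed to 9.91 to 13.6, 81.2 to 83.1 and 686 to 749 without and to 33.7 to 60.1, 83.4 to 96.9 and 913 to 966 with it. Within the mesoderm list, HAND1 was higher with ActA in TESR, while PDGFRA and MESP1 overlapped. In cjPSCM HAND1 and MESP1 were higher with ActA, and PDGFRA went the other way, at 61.3 and 56.5 without and at 46.7 and 52.0 with it. FOXF1 was at 2.74 or less in all pre-ME cells. Within the amnion list GATA3 and ISL1 were higher with ActA in both media, VTCN1 was at 4.68 or less, and TFAP2A went the other way. TFAP2A was at 66.4 and 62.2 without and at 14.2 and 17.5 with ActA in TESR. In cjPSCM it was at 187.5 and 198.1 without and at 24.2 and 15.45 with it. GATA6 was at 132 and 82.8 without and 582 and 337 with ActA in TESR, and between 350 and 459 in all pre-ME cells from cjPSCM. TAL1 was at 54.9 and 72.5 without and 150.0 and 179 with ActA in TESR, and at 519 and 485 and at 1237 and 1463 in cjPSCM. The part of these genes in the integrin and laminin values was not tested.

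LAMB1 was 2.25-fold higher in TESR and 2.26-fold higher in cjPSCM (log2 1.17 ± 0.17 and 1.18 ± 0.17, adjusted p = 0.000288 and 0.000281). ITGA2 was 4.44-fold and 2.41-fold higher (adjusted p = 1.72e-05 and 0.000909). Both held in every fit with 1 library left out. ITGA1 was 3.20-fold higher in TESR, which held, and 1.97-fold higher in cjPSCM, which was lost without replicate 2 of either group (estimates from log2 0.83 to 1.12). ITGA5 and ITGB5, chains of a fibronectin and a vitronectin receptor, were 3.15-fold and 2.27-fold higher in cjPSCM, which held. In TESR they were 1.84-fold and 1.72-fold higher, lost for both without replicate 2 of the cells without ActA, and for ITGA5 also without replicate 1 of either group.

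LAMA4 was 3.50-fold higher in cjPSCM (adjusted p = 2.48e-05), which held, and 1.80-fold higher in TESR, which was lost without either replicate without ActA or replicate 1 with ActA (lowest estimate log2 0.55). LAMC3 was 13.6-fold higher in cjPSCM (adjusted p = 0.000114), which held (log2 4.49 without replicate 1 without ActA), and 4.63-fold higher in TESR, lost without replicate 2 without ActA or replicate 1 with ActA (lowest estimate log2 1.54, and 3.28 without replicate 1 without ActA). LAMA1 was 1.50-fold higher in TESR, lost when any of the 4 libraries was left out, and 1.80-fold higher in cjPSCM, lost without replicate 1 with ActA or replicate 2 without. ITGA11 was 8.93-fold higher in TESR, lost without replicate 2 without ActA (estimates from log2 2.66 to 3.83, the highest without replicate 1 without ActA), and at least 2.06-fold higher in cjPSCM, where it was at 10 and 1 reads with ActA against 0 and 1. That call was lost without either replicate without ActA or replicate 1 with ActA.

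ITGAV was 2.17-fold higher in TESR (log2 1.12 ± 0.19), which held, against log2 0.33 ± 0.19 in cjPSCM (adjusted p = 0.23). ITGA9 was 1.72-fold higher in TESR, a call lost when any of the 4 libraries was left out. In cjPSCM, ITGA3 was 2.68-fold higher and ITGB8 fell by 0.61 ± 0.21 on the log2 scale, and both calls were likewise lost when any of the 4 libraries was left out. The common partner ITGB1 was at log2 0.43 ± 0.13 (adjusted p = 0.057) in TESR and at -0.03 ± 0.13 (adjusted p = 0.91) in cjPSCM, and LAMC1 at 0.15 ± 0.17 and 0.10 ± 0.17. ITGA6, given as a description, fell by 1.34 ± 0.25 in TESR and by 1.20 ± 0.25 in cjPSCM. The number of called members in TESR dropped from 11 to 4 without replicate 2 without ActA and to 6 without replicate 1 with ActA, and a fit on those 4 libraries alone called 17. In cjPSCM it dropped from 11 to 6 without replicate 2 without ActA and to 7 without replicate 1 with ActA.

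Whether the ActA effect differed between the media was tested as an interaction. No member was called, against 0.399% of all genes. At an unadjusted p under 0.05 there were 7 of 28 members, against 17.4% of all genes, and DESeq2 called 1. The smallest adjusted p was that of LAMA4, whose ActA effect was 0.96 larger in cjPSCM on the log2 scale (adjusted p = 0.15). Without the filter on low counts 6 members were called, and in a fit on the 8 pre-ME libraries alone 4.

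**Figure D3:**
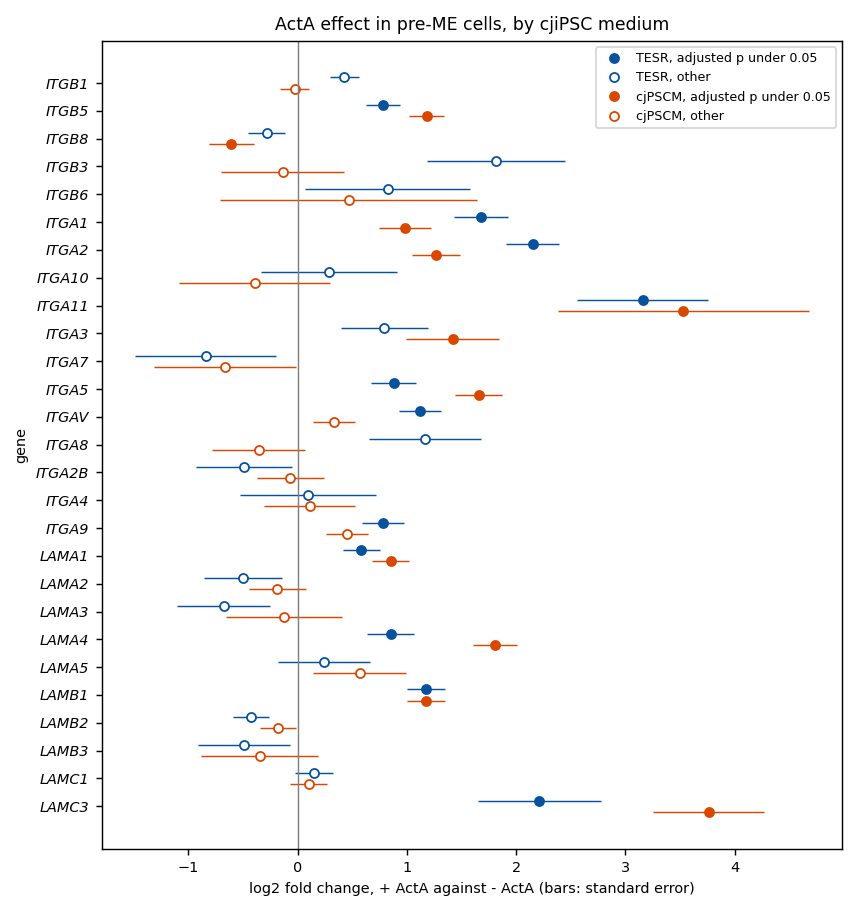
Log2 fold change of integrin and laminin chain genes between pre-ME cells with and without ActA (x axis, points with standard error), in blue for TESR and orange for cjPSCM, with filled points at an adjusted p under 0.05. The 9 genes with filled points to the right of 0 in both media include LAMB1, at 1.17 and 1.18.

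Day 4 embryoid body cells were next set against the pre-ME cells they came from. In the cjPGCLCs 11 of 28 members rose and 2 fell with ActA, against 25.3% and 23.0% of all genes, and 4 against 8.36% lay beyond a log2 fold change of 2. Without ActA 14 rose and 3 fell, against 21.5% and 18.5%, and 5 against 7.88% lay beyond the limit. In the somatic cells 10 rose and 6 fell with ActA, against 23.8% and 24.2%, and 4 against 8.30% lay beyond the limit. Without ActA 13 rose and 5 fell, against 20.6% and 21.7%, and 6 against 7.94% lay beyond the limit. The last count of called members dropped from 18 to 11 without somatic replicate 2, and the 5 that fell dropped to 2 without either somatic replicate and to 3 without pre-ME replicate 1. In the somatic cells with ActA the 10 that rose dropped to 6 without somatic replicate 1. The cjPGCLC and somatic comparisons share their pre-ME libraries, so their values are set side by side only. Genes of other cell types moved with this step in both fractions. The mesoderm list of 4 genes summed to 81.2 to 96.9 normalised counts in the pre-ME cells from cjPSCM and to 6526 to 13064 in the sorted cells, and the amnion list of 4 genes to 686 to 966 and to 4824 to 7560. The rise of the mesoderm sum lay in HAND1 and PDGFRA. MESP1 was at 11.9 to 26.7 in those pre-ME cells and at 2.31 to 22.8 in the sorted cells, and FOXF1 was at 3.54 or less in both. The amnion gene VTCN1 was at 3 counts or fewer in those pre-ME cells and at 77.5 to 642 in the sorted cells. The endoderm gene GATA6 went from between 350 and 459 to between 1792 and 3139, and FOXA2 from 7.93 or less to 83.9 to 518 in the cjPGCLCs. The part of these genes in the integrin and laminin values was not tested.

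In the cjPGCLCs, ITGA4, the fibronectin and VCAM1 receptor chain, rose 10.7-fold with ActA (log2 3.42 ± 0.35, adjusted p = 1.32e-06) and 10.2-fold without (log2 3.36 ± 0.34, adjusted p = 1.31e-06). In the somatic cells its log2 fold change was 0.21 ± 0.45 (adjusted p = 0.73) and 0.62 ± 0.44 (adjusted p = 0.30). ITGB8 rose 7.39-fold and 6.81-fold in the cjPGCLCs with and without ActA, and 5.38-fold and 3.84-fold in the somatic cells. Its partner ITGAV rose 2.53-fold and 2.20-fold in the cjPGCLCs and 2.18-fold and 2.67-fold in the somatic cells. All these calls of ITGA4, ITGB8 and ITGAV held with each library left out.

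ITGA8 rose 7.29-fold with and 2.61-fold without ActA in the cjPGCLCs, the latter lost without replicate 1 of the pre-ME cells (lowest estimate log2 1.13), and 6.66-fold and 4.26-fold in the somatic cells. ITGA1 fell by 0.96 ± 0.24 and 0.98 ± 0.24 in the cjPGCLCs with and without ActA and by 1.95 ± 0.25 and 1.13 ± 0.24 in the somatic cells. ITGA2 fell with ActA, by 0.91 ± 0.22 in the cjPGCLCs and by 1.10 ± 0.22 in the somatic cells. Without ActA it was at 0.00 ± 0.22 and -0.44 ± 0.23 (adjusted p = 1.00 and 0.145). ITGA5 and ITGB5 rose where the pre-ME cells had been made without ActA, ITGA5 2.20-fold and ITGB5 2.68-fold in the cjPGCLCs and 2.76-fold and 2.89-fold in the somatic cells, calls that held. With ActA, ITGA5 was at -0.07 ± 0.21 and -0.01 ± 0.21, and ITGB5 at -0.07 ± 0.16 in the cjPGCLCs and 0.45 ± 0.16 in the somatic cells, the last call lost when any of the 4 libraries was left out.

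Further integrin chains were called against the pre-ME cells. ITGA2B rose 3.08-fold in the somatic cells with ActA (adjusted p = 0.000367), which held, and 1.83-fold without, which was lost without either pre-ME replicate or somatic replicate 2 (lowest estimate log2 0.29), and it was at log2 0.36 ± 0.31 and -0.68 ± 0.32 in the cjPGCLCs. ITGA9 rose 2.65-fold in the somatic cells without ActA, which held, against log2 0.23 ± 0.20 in the cjPGCLCs. ITGA3 rose 3.36-fold in the cjPGCLCs without ActA, lost without pre-ME replicate 2 or cjPGCLC replicate 1 (lowest estimate log2 1.23), and fell by 1.89 ± 0.48 in the somatic cells with ActA, lost without somatic replicate 2. ITGB3 rose 3.40-fold in the cjPGCLCs with ActA, lost without replicate 1 of either group (lowest estimate log2 0.70). ITGB1 fell by 0.38 ± 0.13 in the cjPGCLCs and by 0.37 ± 0.13 in the somatic cells without ActA, calls lost without pre-ME replicate 2 or either sorted replicate. ITGB6, at 3 reads or fewer in the pre-ME libraries, was at least 3.74-fold higher in the cjPGCLCs without ActA and at least 4.40-fold and 2.87-fold higher in the somatic cells without and with ActA, and each call was lost without at least 1 of its libraries. ITGA7 fell by 2.16 ± 0.77 in the somatic cells without ActA, which was lost under DESeq2 and without either somatic replicate or pre-ME replicate 1.

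Among the laminins, LAMA1 rose 1.72-fold and 3.53-fold in the cjPGCLCs with and without ActA and 1.69-fold and 3.17-fold in the somatic cells, calls that held. LAMA4 rose by 1.43 ± 0.20 and 2.66 ± 0.21 on the log2 scale in the cjPGCLCs with and without ActA. In the somatic cells it fell by 0.93 ± 0.20 with ActA, which held, and rose by 0.65 ± 0.21 without, which was lost without replicate 2 of either group (lowest estimate 0.47). LAMC1 rose 2.30-fold and 1.92-fold in the cjPGCLCs with and without ActA, against log2 0.34 ± 0.17 and 0.43 ± 0.17 in the somatic cells (adjusted p = 0.11 and 0.056). LAMB1 rose 3.47-fold in the cjPGCLCs without ActA and was at log2 -0.02 ± 0.17 in those with it. In the somatic cells it fell by 0.80 ± 0.17 with ActA, which held, and rose by 0.47 ± 0.17 without, which was lost when any of the 4 libraries was left out.

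LAMC3 rose 18.6-fold in the somatic cells without ActA (adjusted p = 7.72e-06), which held (log2 4.94 without pre-ME replicate 1), and 3.11-fold with ActA, lost without somatic replicate 1. In the cjPGCLCs without ActA it rose 4.03-fold, lost without pre-ME replicate 2 or cjPGCLC replicate 1 (log2 1.64 and 1.96) and at log2 2.74 without pre-ME replicate 1. LAMB3 rose 4.05-fold in the cjPGCLCs with ActA and 4.02-fold in the matched somatic cells, which held (log2 2.96 and 2.95 without pre-ME replicate 1), and 4.17-fold in the somatic cells without ActA, lost without somatic replicate 1 (log2 1.40). LAMB2 rose 2.10-fold in the cjPGCLCs with ActA, which held, and 1.51-fold in the matched somatic cells, lost without somatic replicate 1. LAMA2 fell by 1.12 ± 0.26 and 1.54 ± 0.27 in the cjPGCLCs and somatic cells without ActA, which held, the latter at -2.35 without somatic replicate 2. LAMA3, at 3 reads or fewer in the somatic cells without ActA, was at least 2.46-fold lower there than in the pre-ME cells, a call lost under DESeq2 and without either somatic replicate or pre-ME replicate 1.

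The last comparison set the sorted fractions of day 4 embryoid bodies against each other. Of the 28 tested members, 6 were higher in the cjPGCLCs and 1 lower with ActA, against 3.68% and 1.16% of all genes, and 3 against 1.58% lay beyond a log2 fold change of 2. Without ActA 6 were higher and 3 lower, against 6.67% and 2.96%, and 4 against 2.84% lay beyond the limit. ITGA4, LAMA4 and LAMB1 were among those higher in the cjPGCLCs of both protocols, 4 of 6 in each, and ITGA2B was lower in both, 1 of 1 and 1 of 3. These 2 comparisons share no library, and the share of all genes called in both was not counted.

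ITGA4 was 9.24-fold higher in the cjPGCLCs with ActA (log2 3.21 ± 0.37, adjusted p = 6.98e-05) and 6.65-fold higher without (log2 2.73 ± 0.37, adjusted p = 0.000105). LAMA4 was 5.15-fold higher with ActA (log2 2.36 ± 0.21, adjusted p = 3.68e-06) and 4.01-fold higher without (log2 2.00 ± 0.21, adjusted p = 8.54e-06). These 4 calls held with each library left out. LAMB1 was 1.72-fold higher with ActA, a call lost without either somatic replicate or cjPGCLC replicate 1 (estimates from log2 0.58 to 0.95), and 2.51-fold higher without ActA (adjusted p = 9.28e-05), which held. LAMC1 was 1.81-fold higher with ActA, lost without somatic replicate 2 or cjPGCLC replicate 1, and at log2 0.51 ± 0.17 without ActA (adjusted p = 0.077).

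ITGA3, a laminin receptor chain, was 8.14-fold higher in the cjPGCLCs without ActA (log2 3.03 ± 0.54, adjusted p = 0.00135), which held. With ActA it was at log2 1.42 ± 0.49 (adjusted p = 0.12). ITGA6, chosen by the sort, was higher by 3.27 ± 0.29 and 3.22 ± 0.29 with and without ActA. ITGB1, the partner of both and of ITGA4, was at 0.16 ± 0.13 and -0.01 ± 0.13 (adjusted p = 0.68 and 0.99). ITGB8 was 1.77-fold higher without ActA, lost without somatic replicate 1 (lowest estimate log2 0.78), and its partner ITGAV was at 0.22 ± 0.19 and -0.28 ± 0.19. ITGA1 was 1.99-fold higher with ActA, lost without either somatic replicate or cjPGCLC replicate 1, and at log2 0.14 ± 0.24 without.

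On the somatic side, ITGA2B was lower in the cjPGCLCs by 1.26 ± 0.30 with ActA, where the call was lost without somatic replicate 2 or either cjPGCLC replicate, and by 1.55 ± 0.33 without, where it was lost without replicate 2 of either group. Its partner ITGB3 was at 0.39 ± 0.51 and -0.39 ± 0.56. ITGA9 was lower in the cjPGCLCs without ActA, by 1.18 ± 0.20 (adjusted p = 0.000838), which held, and LAMC3 by 2.20 ± 0.45, lost without cjPGCLC replicate 1 (adjusted p = 0.052). With ActA these were at -0.48 ± 0.20 and -0.90 ± 0.37 (adjusted p = 0.21 and 0.22). The number of called members with ActA dropped from 7 to 4 without somatic replicate 1, to 3 without somatic replicate 2 and to 2 without cjPGCLC replicate 1, while a fit on the 4 sorted libraries with ActA alone called 11. The endoderm gene FOXA2 moved with the sort, at 83.9 to 518 normalised counts in the cjPGCLCs and at 4.61 or less in the somatic cells. GATA6 of the same list did not follow it, at 1792 to 2678 in the cjPGCLCs and 1966 to 3139 in the somatic cells. The endothelial gene CDH5 was lower in the cjPGCLCs, as was ITGA2B. It was at 995 and 899 with ActA and at 493 and 550 without, against 1546 and 1753 and 853 and 1598 in the somatic cells. TAL1 overlapped between the fractions in both protocols. The part of FOXA2 and CDH5 in the results was not tested.

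Whether the difference between cjPGCLCs and somatic cells depended on ActA was tested as an interaction. No member was called, against 0.0633% of all genes, and DESeq2 also called 0. At an unadjusted p under 0.05 there were 6 of 28 members, against 6.25% of all genes. The smallest adjusted p among members was that of ITGA9 (log2 0.70, adjusted p = 0.64). Without the filter on low counts 2 members were called.

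**Figure D4:**
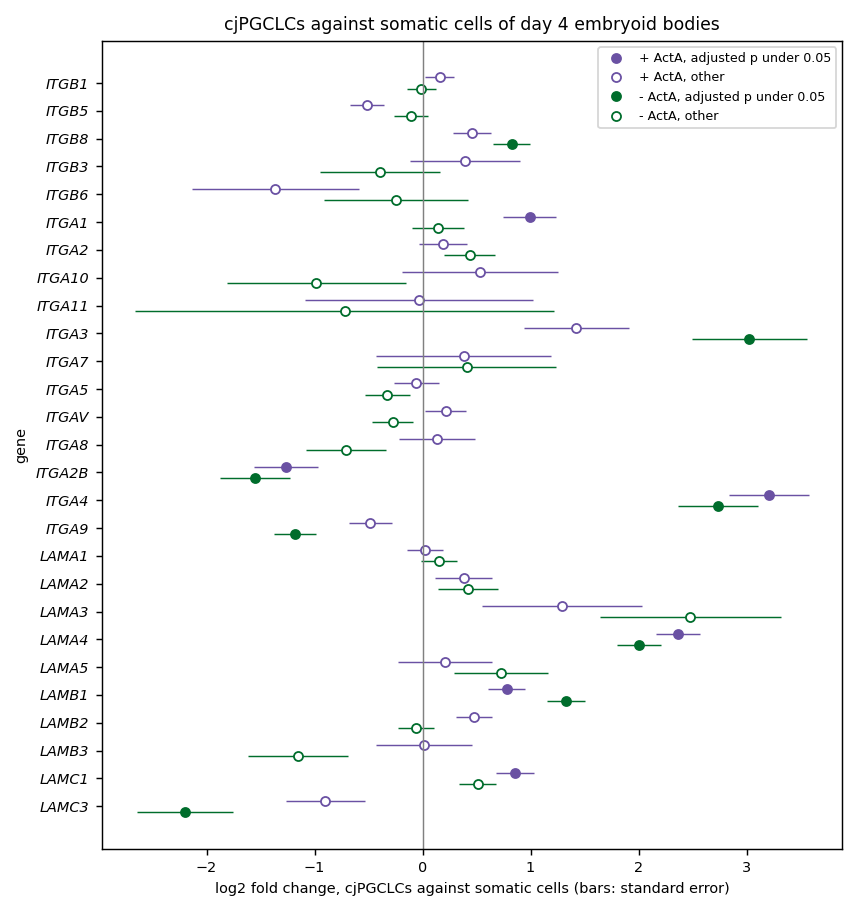
Log2 fold change of integrin and laminin chain genes between cjPGCLCs and somatic cells of day 4 embryoid bodies (x axis, points with standard error), in purple with ActA and green without, with filled points at an adjusted p under 0.05. ITGA4 lies at 3.21 and 2.73 and LAMA4 at 2.36 and 2.00, and ITGB1 lies at 0.16 and -0.01.

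Other genes of cell-matrix contact were counted from 3 lists: 18 adaptors that tie integrins to actin, 14 matrix ligands other than laminins and 7 laminin receptors other than integrins, all 39 of which were tested. These calls were not refitted with libraries left out. In the cjPSCM cjiPSCs 5 adaptors were higher and 3 lower than in TESR, against 18.1% of all genes each way, among them the kindlins FERMT3, 2.89 higher on the log2 scale, and FERMT1, which fell by 2.15. Of the ligands 8 were higher and 4 lower, with MFGE8 2.73 and the collagen IV gene COL4A2 2.24 higher, and SPP1 (osteopontin) 7.16 lower, and 3 receptors were lower, led by the syndecan SDC2, which fell by 3.40.

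In pre-ME cells without ActA most adaptors fell against the cjiPSCs, 13 of 18 in TESR with 1 higher and 14 of 18 in cjPSCM with none higher, against 19.2% and 20.1% of all genes that fell and 17.4% and 17.9% that rose. The scaffold PXN (paxillin) fell by 1.91 and 1.99 and TNS1 (tensin) by 2.22 and 1.87. With ActA 5 fell and none rose in each medium, against 17.1% of all genes that fell in TESR and 10.3% in cjPSCM. Of the 14 ligands, 8 fell and none rose in TESR without ActA and 12 fell and 1 rose in cjPSCM without ActA. With ActA 2 rose and 6 fell in TESR and 1 rose and 6 fell in cjPSCM, and fibronectin (FN1), the ligand of ITGA5, rose in both, by 2.16 and 0.98. Of the 7 other laminin receptors, none rose and 4 fell in TESR with ActA, 1 rose and 3 fell without, 1 rose and 1 fell in cjPSCM with ActA and 3 rose and 1 fell without.

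Compared with pre-ME cells without ActA, 7 adaptors were higher and 1 lower with ActA in TESR and 10 were higher and none lower in cjPSCM, against 5.63% and 11.4% of all genes higher, with PXN higher by 0.90 and 1.19 and ACTN1 (α-actinin) by 1.05 and 1.40. Of the ligands 5 were higher and 1 lower in TESR and 7 higher and 1 lower in cjPSCM, and FN1 was 2.31 and 2.40 higher while NID2 (nidogen) fell by 0.92 and 1.54. Of the receptors none was higher and 1, BCAM, was lower in TESR, by 0.99, and none was called in cjPSCM. No list gene was called in either interaction.

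In the day 4 cells, 3 adaptors rose and 9 fell in the cjPGCLCs with ActA and 7 rose and 2 fell without, and 5 and 7 and 9 and 0 did so in the somatic cells. Among all genes, between 18.5% and 25.3% were called in each direction in these 4 comparisons. Of the ligands 7 rose and 3 fell in the cjPGCLCs with ActA and 10 rose and 1 fell without, and 6 and 4 and 8 and 0 did so in the somatic cells. Of the receptors 3 rose and 4 fell, 3 rose and 3 fell, 3 rose and 3 fell, and 2 rose and 3 fell in the same 4 comparisons. NID2 rose by 4.49 and 4.21 and the tenascin gene TNC by 3.90 and 4.82 in the cjPGCLCs with and without ActA. The glypican GPC3 rose by 3.22 and 3.62 and BCAM, a laminin receptor that binds LAMA5, fell by 2.00 and 2.41.

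Between cjPGCLCs and somatic cells no adaptor was called with ActA, and 1 was higher and 2 lower without. Of all genes, 3.68% were higher and 1.16% lower with ActA and 6.67% and 2.96% without. Of the ligands 2 were higher and 1 lower with ActA and 4 higher and 3 lower without. TNC, a ligand of ITGA9, was 3.54 and 3.37 higher in the cjPGCLCs, NID2 1.18 and 2.53 higher, and THBS1 (thrombospondin) fell by 1.24 and 1.35. Of the receptors 2 were higher and none lower with ActA and 4 higher and 2 lower without, led by GPC3, which was 1.51 and 2.52 higher.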

How the data were processed

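RNA-seq was made from 20 libraries of 1 marmoset iPSC line, prepared with a directional kit. The authors' tools include FastQC 0.11.8, STAR 2.7.0a and HTSeq 0.11, per the labels, and DESeq2, and reads were mapped to the marmoset genome build calJac4. The annotation release and the strand setting of the counting are not given in the sources used here. The deposited count table holds whole reads per gene. The deposited signal table holds the same counts divided by the authors' size factors, and all levels given as normalised counts come from it. Rows that name no gene were left out of library sizes and tests, and reads outside genes made up 10.6% to 23.2% of a library.

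Counts were tested with edgeR 4.0.16 (R 4.3.3, limma 3.58.1), using TMM scaling, a filter on low counts by condition, 1 coefficient per condition over all 20 libraries, and the quasi-likelihood F-test (two-sided) with Benjamini-Hochberg adjustment over the 15797 tested genes. Calls are at an adjusted p under 0.05, and a second limit adds a log2 fold change beyond 2. Where both libraries of a group were at or below 3 counts, the fold was given as a bound against 3 counts per library, 0.136 to 0.627 CPM. With 2 libraries a group, p-values measure the spread between cultures of 1 line. The fit was tested on simulated data. The rule for named genes gave the level of every tested member by role, fold changes for up to 8 called members each way by size, their partners, and up to 3 list genes each way by adjusted p. Further called members and list genes were named after their values were seen. The members and lists were chosen with earlier results of these data known. Alternatives were DESeq2 1.42.0, its size factors, other filters on low counts, the libraries of a comparison alone, the replicate number as a block and each library left out. No sequences were analysed here. Some genes of the counts and marker lists are not reported here by name, nor drawn. Python 3.11.15 served for summaries (pandas 2.3.3) and figures (matplotlib 3.10.9).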

Additional observations from a re-analysis of the deposited data

Results flagged for a closer look

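A few members had called or estimated changes in which every library moved one way in one setting and the opposite way in another; in each case the difference between the settings was not tested. From cjiPSCs to pre-ME cells with ActA, the log2 fold change in TESR minus that in cjPSCM was 1.74 for ITGA2 (0.83 and -0.91), 3.88 for ITGA2B (1.40 and -2.49) and 1.26 for ITGAV (0.78 and -0.48). From cjiPSCs to pre-ME cells without ActA it was 4.30 for ITGA2B (1.89 and -2.42). In TESR ITGA2B rested on 5 and 1 reads in the cjiPSCs. From pre-ME cells to cjPGCLCs, the log2 fold change with ActA minus that without was 1.04 for ITGA2B (0.36 and -0.68). From pre-ME cells to somatic cells it was -1.58 for LAMA4 (-0.93 and 0.65) and -1.27 for LAMB1 (-0.80 and 0.47).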

How the results depend on the processing

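Of 182 member calls over the 13 comparisons, none reversed under the alternatives run. DESeq2 kept 167, DESeq2 size factors 182, no filter on low counts 178, and fits on the libraries of a comparison alone 147; 109 held with each library left out. On the libraries of a comparison alone, the number of called members went from 16 to 8 for cjPSCM against TESR cjiPSCs, from 12 to 2 and from 17 to 11 for cjPSCM pre-ME cells with and without ActA against cjiPSCs, from 11 to 17 for ActA in TESR, from 7 to 11 for cjPGCLCs against somatic cells with ActA, and from 0 to 4 for ActA by medium. Without the filter on low counts, 2 members were called for sort by ActA and 6 for ActA by medium, and DESeq2 called 1 for the latter. The cause was not tested.

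With each library left out, the counts ran from 9 to 14 (16 with all libraries) for TESR pre-ME cells with ActA against cjiPSCs, from 4 to 9 (11) for ActA in TESR, from 6 to 9 (11) for ActA in cjPSCM, from 11 to 16 (18) for somatic against pre-ME cells without ActA and from 2 to 7 (7) for cjPGCLCs against somatic cells with ActA. Where a group then held 1 library, it was assumed to vary like the other groups.

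Same-numbered libraries correlated at -0.19 to 0.222 in their deviations, so replicate numbers were not shown to pair samples. With the replicate block, 15 members were called for cjPSCM against TESR and 181 of the 182 calls held. Crossed numbers, added after seeing the data, called 12, 17 and 19 members where the correlation was under -0.1. The shallowest library, of somatic cells made without ActA, held 4784964 reads on genes. The effect of its depth on the calls of low members was not tested.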
